A study of Mus musculus with 298 samples.

Results

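The comparison followed mice of the TKI cohort, which had received the BCR-ABL kinase inhibitor nilotinib, in the weeks after the drug was stopped. Each TKI mouse with a blood library later than week 11 gave 1 change, its last sampled week minus week 11, about 1 week after dosing ended. Of 7 TKI mice 4 qualified (502, 507 and 512 with a last week of 16, and 508 with a last week of 12), which is 8 of the 99 libraries of the cohort and of 298 libraries from 20 mice in all. The other 3 TKI mice had no library after week 11, and the labels give no reason why sampling of a mouse stopped. The 3 control mice, week 16 minus week 11, were the reference with 6 libraries.

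All mice were male or female C57BL/6 animals, 6 to 8 weeks old at the start, with the genotype tTA+/-, BCR-ABL+/-. In this SCLtTA/BCR-ABL line human BCR-ABL is transcribed when tetracycline is taken away, and the transactivator is driven by an Scl regulatory element, which limits expression to the cells in which that element is active. TKI mice had tetracycline removed at the start, were gavaged daily with nilotinib at 50 mg/kg for 4 weeks from week 6, and had the transgene switched on during and after dosing. Control mice carried the same alleles and drank tetracycline water at 0.5 g/L throughout. A further reference was 4 mice of the CML cohort (480, 487, 541 and 542), which were off tetracycline, never given nilotinib, and had libraries at weeks 11 and 16. The labels give PBMC as the tissue and whole blood as the source of the RNA, which was depleted of ribosomal RNA, and do not say whether every blood was handled alike.

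BCR-ABL is a constitutively active tyrosine kinase that drives chronic myeloid leukaemia, a disease in which the marrow releases excess granulocytes into blood. Nilotinib occupies the ATP site of the kinase and lowers its signalling without removing its transcript, so cells that still carry the fusion can expand again when the drug is stopped. Blood RNA sums the transcripts of red cell precursors and reticulocytes, platelets, granulocytes, monocytes and lymphocytes, so a shift in the mix of cells changes the share of every other transcript. Fewer cells of a type and less RNA per cell cannot be told apart in such bulk samples.

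The week 11 libraries of 3 of the 4 TKI mice stood apart. Haemoglobin transcripts made up 24.6% of all TPM (transcript abundance per library, scaled to a fixed total) in mouse 502 at week 11, but 2.49% in 507, 2.33% in 508 and 0.331% in 512. In the same 4 mice the share was 17.1 to 51.6% in the last week. It was 11.2 to 51.6% in all 36 of their libraries of weeks 6 to 16 other than week 11, which include the last week. Control libraries held 44.4 to 48.3% at week 16 and 46.1 to 56.1% at week 11. The small cytoplasmic RNA Rn7s2 took 22.6 to 38.9% of TPM in the last week and 42.5 to 49.1% at week 11 in TKI mice, and genes reaching 1 TPM numbered 9313 to 10163 in the last week and 10109 to 11514 at week 11. Because TPM values share a fixed sum, changes are given as deposited, after rescaling each library by a median-ratio size factor, and, for the mice with a week 16 library, from week 12 on rescaled values, a baseline chosen after the week 11 values were seen. A different handling of these bloods, such as a loss of red cells before extraction, is not recorded in the labels and was not tested. Nor was the part of these low shares in the results tested. Every change from week 11 carries that doubt, on deposited and on rescaled values. The haemoglobin list median from week 11 was 3.46 as deposited and 4.05 rescaled, against 0.42 from week 12.

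**Figure D1:**
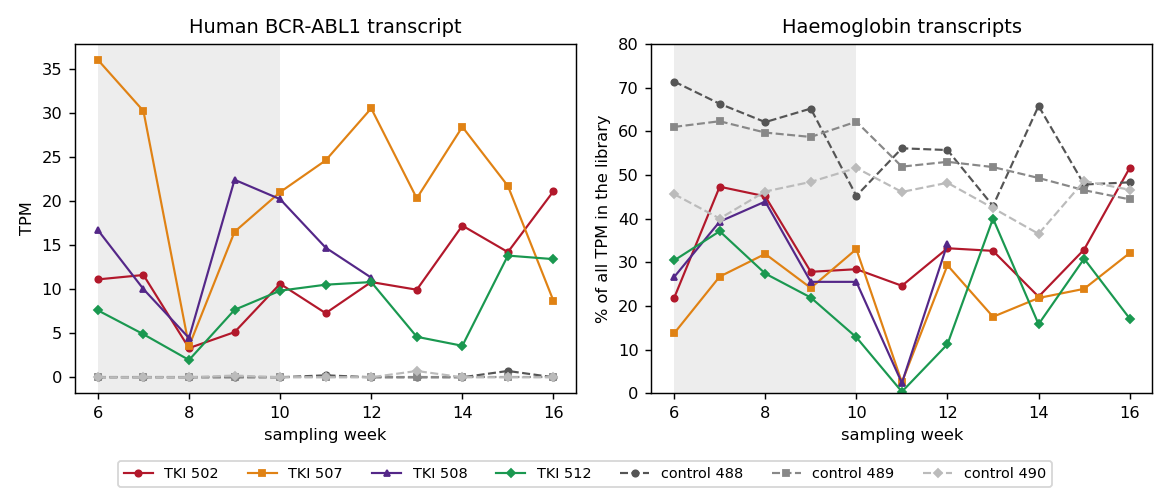
Human BCR-ABL1 transcript in TPM (left) and haemoglobin transcripts as a percentage of all TPM (right) by sampling week in 4 TKI mice (solid lines) and 3 control mice (dashed grey lines), 1 library per point, with the nilotinib weeks shaded. At week 11 haemoglobin was at 0.331 to 2.49% in TKI mice 507, 508 and 512, and the transcript was at 7.27 to 24.6 TPM in the 4 TKI mice.

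The transgene was present at both times in every TKI mouse. The human BCR-ABL1 transcript stood at 21.1 TPM (502), 8.67 TPM (507), 11.3 TPM (508) and 13.4 TPM (512) in the last week, against 7.27, 24.6, 14.7 and 10.5 TPM in the same mice at week 11. It was higher in the last week in 2 of 4 mice, and the ranges at the 2 times overlapped. The mean change was -0.004 ± 1.19 (SD, n = 4, log2 of TPM + 1), with an exact two-sided sign-flip p = 1, where 4 mice cannot give less than 0.125. Against the control change of -0.096 ± 0.17 (SD, n = 3) the difference was 0.092, with an exact two-sided permutation p = 0.857 and a smallest possible value of 0.0286. On rescaled values the mean change was 0.553 ± 1.01 (SD), higher in 3 of 4 mice, with an exact sign-flip p = 0.5.

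Week by week, the transcript averaged 17.9 ± 12.7 TPM (SD, n = 4) at week 6, 3.31 ± 1.03 TPM at week 8, 15.4 ± 6.01 TPM at week 10, 14.3 ± 7.51 TPM at week 11 and 13.6 ± 5.37 TPM in the last week. Libraries of weeks 11 to 16 from control mice held 0 to 0.716 TPM (18 libraries). At week 10, the end of dosing, all 4 TKI mice stood above these control values, at 9.82 TPM or more. The mouse genes whose human counterparts form the fusion were also measured: Bcr fell in TKI mice (log2 change -1.22 ± 0.23 SE, limma adjusted p = 0.00117, lower in 4 of 4), and Abl1 gave -0.36 ± 0.21 (adjusted p = 0.156). On rescaled values neither passed, with Bcr at -0.69 (adjusted p = 0.0724) and Abl1 at 0.13 (adjusted p = 0.442).

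Across the transcriptome most called genes were lower in the last week on the deposited scale, and rises and falls were nearly balanced after rescaling. Of 10944 genes tested, 196 rose (1.79%) and 4785 fell (43.7%) as deposited, with the median of all genes at -0.46. On rescaled values 623 rose (5.69%) and 774 fell (7.07%), with the median of all genes at 0.001. All 774 genes that fell on rescaled values were among the 4785, and 173 of the 623 rescaled rises were among the 196. From week 12, with mice 502, 507 and 512, 1296 of 10685 genes rose (12.1%) and 1373 fell (12.8%) on rescaled values. Of the genes called from week 11 on rescaled values, 358 rises (57.5%) and 519 falls (67.1%) were also called from week 12. Both fits use the same week 16 libraries of mice 502, 507 and 512 and of the control mice. Calls from the 2 baselines are therefore not independent. In control mice limma called 0 genes (0%) between weeks 16 and 11, with 243 at an unadjusted p under 0.05.

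Genes of red cells led the rises. The 12 largest rises on the deposited scale, among named genes with a mean of at least 5 TPM that were higher in all 4 mice, were the globin genes Hbb-bs, Hba-a1, Hba-a2 and Hbb-bt together with Tmcc2, Cdr2, Prxl2a, Alas2, Car2, Tent5c, Tspan33 and Bpgm, with log2 changes of 3.18 to 3.70. Of these 12 calls 9 were lost in at least 1 of the fits that left out a mouse, 8 of them without mouse 512, 5 each without control mice 488 and 489, 3 without 507 and 2 without 508. Alas2, Tent5c and Bpgm passed in every such fit. Alas2, the first and rate-limiting enzyme of haem synthesis in erythroid cells, stood at 2640 TPM (502), 1200 TPM (507), 1830 TPM (508) and 716 TPM (512) in the last week, against 1590, 117, 134 and 18.6 TPM in the same mice at week 11. Its control values were 1700 to 2060 TPM at week 16 and 2030 to 2370 TPM at week 11. The 4 TKI mice were all higher in the last week, and the 2 times overlapped only through mouse 502, which was the highest at both.

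Alas2 rose by 3.26 ± 1.03 on the log2 scale (SE, limma adjusted p = 0.0184). The gain was 0.74 in mouse 502 and 3.35 to 5.19 in the other 3. After rescaling it was 3.85 with adjusted p = 0.0787, and from week 12 it was 0.31 with adjusted p = 0.484. Its promoter window is shown because the gene stands for the erythroid list, whose factor GATA1 binds the letters AGATAA. The window runs from 250 bases before to 50 bases after the RefSeq start (build GRCm38.p6, chrX:150547167-150547466, + strand), and capitals mark TTATCT, which is AGATAA read on the opposite strand:
Alas2: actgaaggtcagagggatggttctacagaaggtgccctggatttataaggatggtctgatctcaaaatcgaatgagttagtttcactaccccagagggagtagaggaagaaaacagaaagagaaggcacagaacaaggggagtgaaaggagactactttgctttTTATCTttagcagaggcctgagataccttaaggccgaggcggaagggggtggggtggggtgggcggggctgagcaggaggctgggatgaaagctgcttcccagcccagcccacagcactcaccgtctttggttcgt
The letters AGATAA, or TTATCT on the other strand, occurred in 8 of the 20 erythroid list genes with a window and in 11.2% of all 32851 windows.

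The globin values followed the haemoglobin share described above. Hba-a1, an alpha-globin gene, was at 77900 TPM (502), 56500 TPM (507), 50900 TPM (508) and 25900 TPM (512) in the last week, against 35300, 3820, 4050 and 539 TPM at week 11. Control mice held 71300 to 92500 TPM at week 16 and 79600 to 99300 TPM at week 11, so the last-week value of mouse 502 lay within the control range and the other 3 lay below it. All 6 haemoglobin genes tested rose as deposited (list median 3.46), 2 rose on rescaled values (Hbq1a at 2.23, adjusted p = 0.0237, and Hbq1b at 3.25, adjusted p = 0.0317), and 1 of 6 rose from week 12 (list median 0.42). The alpha and beta globin copies share sequence, and their separate values are uncertain.

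Of 32 genes of the erythroid and haem synthesis list, 22 rose and 4 fell as deposited (list median 1.60, all genes -0.46), 20 rose and 0 fell on rescaled values (median 1.96, all genes 0.001), and 16 rose and 1 fell from week 12 (median 0.68, all genes -0.021). Tspan33, a tetraspanin of erythroid precursors, rose from either baseline, by 3.19 ± 0.97 (adjusted p = 0.0147) as deposited, 3.52 (adjusted p = 0.0435) rescaled and 2.50 (adjusted p = 0.00749) from week 12, but the deposited call was lost without mouse 512 (adjusted p = 0.0951). The transmembrane coiled-coil gene Tmcc2 was at 74.3 TPM (502), 203 TPM (507), 13.5 TPM (508) and 18.5 TPM (512) in the last week, against 10.6, 2.06, 2.93 and 0.64 TPM at week 11. At week 15 it had been at 23.9, 14.8 and 14.8 TPM in mice 502, 507 and 512, and controls held 8.22 to 12.5 TPM at week 16. Tmcc2 rose by 3.55 ± 1.30 (adjusted p = 0.0356) as deposited and by 3.25 (adjusted p = 0.00749) from week 12, while the rescaled value of 4.00 had adjusted p = 0.111. Its deposited call was lost without mouse 512 (adjusted p = 0.197), 508 (0.19), 488 (0.0636) or 489 (0.053). Gata1, the erythroid and megakaryocytic transcription factor, fell by 1.18 ± 0.26 (adjusted p = 0.00255) as deposited, with a rescaled value of -0.64 (adjusted p = 0.139). The others that fell as deposited, named after their values were seen, were Tal1, Nfe2 and Epor, genes of early erythroid cells (-1.12 to -0.63).

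**Figure D2:**
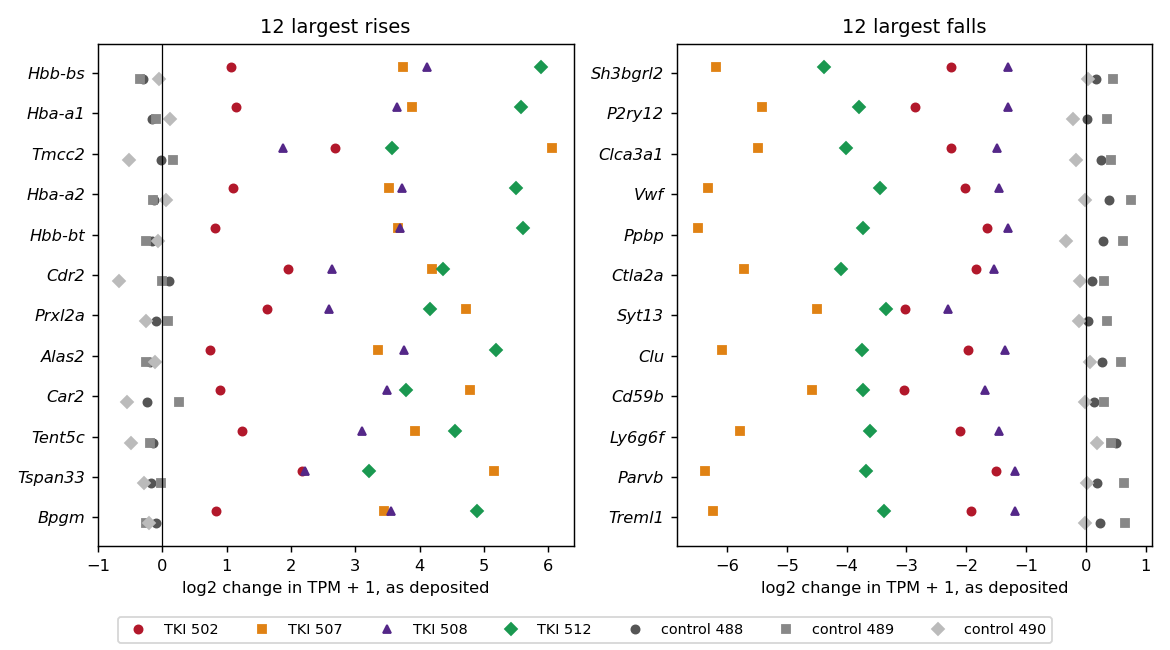
Log2 change in deposited TPM + 1 for the 12 largest rises (left) and the 12 largest falls (right) among named genes that passed, had a mean of at least 5 TPM and moved the same way in all 4 TKI mice, 1 point per mouse, with TKI mice (last week minus week 11) drawn above control mice (week 16 minus week 11) in each row. Mouse 507 had the lowest value for all 12 falls, down to -6.48 for Ppbp, and control mice lay close to 0.

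B cell genes fell on both scales and from both baselines. Spib, a transcription factor of B cells, was at 2.13 TPM (502), 0.308 TPM (507), 6.26 TPM (508) and 1.12 TPM (512) in the last week, against 9.13, 15.0, 16.3 and 9.75 TPM at week 11. Control mice held 30.1 to 47.6 TPM at week 16 and 24.5 to 35.2 TPM at week 11. The TKI values of the 2 times did not overlap, and every TKI value lay below every control value.

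Spib fell by 2.23 ± 0.38 on the log2 scale (SE, limma adjusted p = 0.000936), by 1.73 rescaled (adjusted p = 0.0367) and by 2.19 from week 12 (adjusted p = 0.0119). Cxcr5, the chemokine receptor that leads B cells into follicles, fell by 2.03 ± 0.31 (adjusted p = 0.000936), by 1.53 rescaled (adjusted p = 0.0277) and by 1.51 from week 12 (adjusted p = 0.0124). Tnfrsf13c, the receptor for the B cell survival factor BAFF, fell by 1.57 ± 0.24 (adjusted p = 0.000936), by 1.14 rescaled (adjusted p = 0.0343) and by 1.52 from week 12 (adjusted p = 0.0113). Of 25 B cell genes 25 fell as deposited (median -2.47), 14 fell on rescaled values (median -1.90) and 23 fell from week 12 (median -2.24), and 0 rose in any of these.

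The B cell list summed to 119 to 581 TPM in the last week and 979 to 1610 TPM at week 11 in TKI mice, against 1830 to 3770 TPM at week 16 and 2050 to 3080 TPM at week 11 in control mice. None of its 25 members was at 0 in every last-week library. The mean rescaled change was -1.66 in mouse 502, -3.10 in 507, -2.19 in 512 and -0.40 in 508, whose interval was 1 week instead of 5. By week, the mean log2 level of the B cell list in mouse 507 was 4.21 at week 11, 3.69 at week 12, 3.45 at week 13, 3.18 at week 14, 2.10 at week 15 and 1.22 at week 16. Mouse 502 went through 4.33, 4.14, 4.16, 3.69, 3.54 and 2.70 over the same weeks, and mouse 512 through 3.97, 4.07, 4.07, 2.80, 2.47 and 1.81. The lowest of these weekly B cell levels was at week 16 in all 3 mice.

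**Figure D3:**
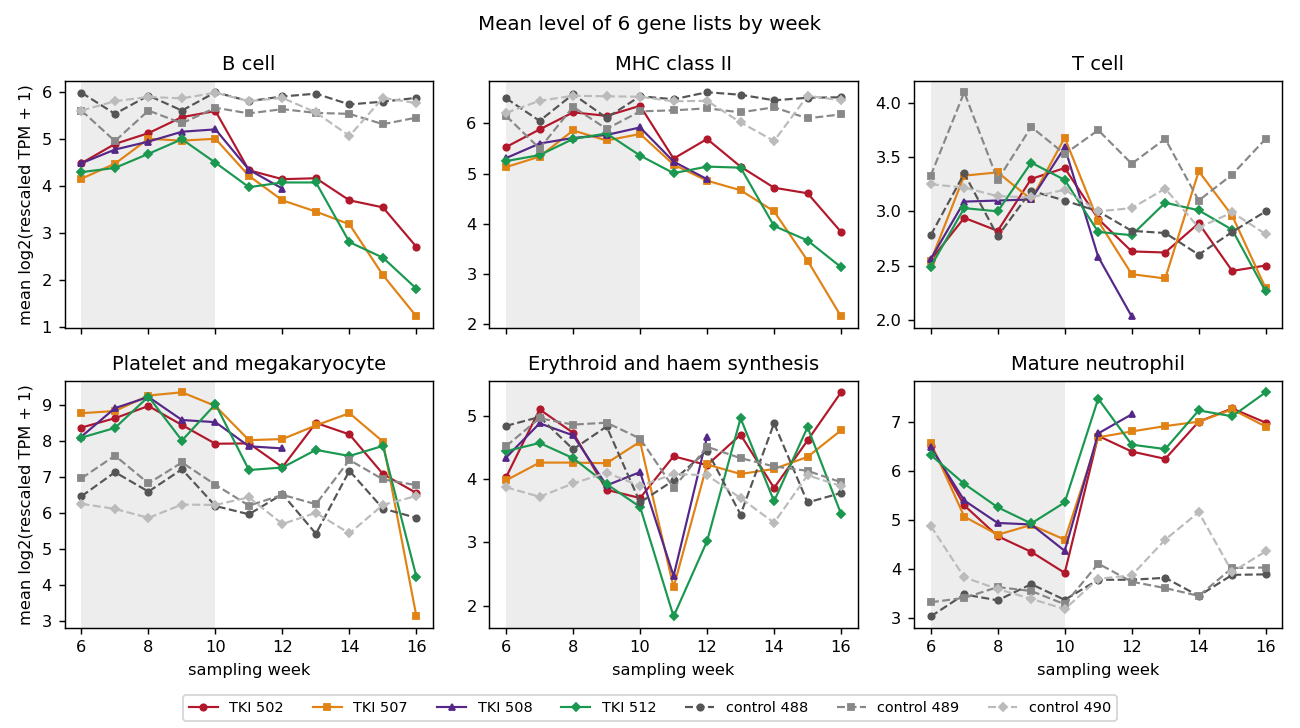
Mean log2(rescaled TPM + 1) of 6 gene lists by sampling week in 4 TKI mice (solid lines) and 3 control mice (dashed grey lines), 1 library per point, with the nilotinib weeks shaded. The B cell mean in mouse 507 was 1.22 at week 16 and 4.21 at week 11, and the platelet mean of that mouse was 3.13 at week 16 and 7.99 at week 15.

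MHC class II genes, which encode the molecules that present antigen on B cells, dendritic cells and monocytes, fell with them. Ciita, the co-activator that switches these genes on, was at 2.64 TPM (502), 0.479 TPM (507), 5.07 TPM (508) and 1.36 TPM (512) in the last week, against 9.12, 16.7, 17.5 and 8.91 TPM at week 11. Control mice held 19.3 to 42.6 TPM at week 16 and 18.3 to 31.3 TPM at week 11, above all TKI values. Ciita fell by 2.18 ± 0.40 (SE, limma adjusted p = 0.000993), by 1.69 rescaled (adjusted p = 0.036) and by 1.98 from week 12 (adjusted p = 0.0124).

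Of 11 MHC class II genes 11 fell as deposited (median -2.47), 9 fell on rescaled values (median -1.89) and 11 fell from week 12 (median -2.42). H2-DMa, which helps to load peptide, fell by 1.61 ± 0.24 (adjusted p = 0.000936) and by 1.05 rescaled (adjusted p = 0.0347). H2-Oa, which restrains that loading in B cells, fell by 2.03 ± 0.35 (adjusted p = 0.000936) and by 1.52 rescaled (adjusted p = 0.0373). The list summed to 77.1 to 687 TPM in the last week and 1180 to 2000 TPM at week 11 in TKI mice, against 2150 to 3990 TPM at week 16 and 2200 to 3270 TPM at week 11 in control mice. B cell and MHC class II changes stand side by side in each mouse: the mean rescaled change of the MHC class II list was -1.47 in 502, -3.08 in 507, -1.87 in 512 and -0.36 in 508.

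The promoters of MHC class II genes share a Y box, the letters GATTGG, to which the factor NF-Y binds beside the sites where Ciita is recruited. Promoter windows of 3 members are shown because the genes moved together, from RefSeq in build GRCm38.p6, from 250 bases before to 50 bases after the start. They lie at chr17:34287774-34288073 on the - strand (H2-Aa, the alpha chain of I-A), chr17:34305617-34305916 on the + strand (H2-Eb1, the beta chain of I-E) and chr17:34092129-34092428 on the + strand (H2-Oa). Capitals mark GATTGG, or CCAATC where the letters lie on the opposite strand:
H2-Aa: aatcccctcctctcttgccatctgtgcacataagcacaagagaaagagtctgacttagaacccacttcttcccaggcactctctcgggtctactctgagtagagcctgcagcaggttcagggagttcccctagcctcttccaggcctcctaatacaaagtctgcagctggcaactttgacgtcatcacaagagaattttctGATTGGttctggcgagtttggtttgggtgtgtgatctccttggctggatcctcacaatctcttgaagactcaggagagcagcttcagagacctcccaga
H2-Eb1: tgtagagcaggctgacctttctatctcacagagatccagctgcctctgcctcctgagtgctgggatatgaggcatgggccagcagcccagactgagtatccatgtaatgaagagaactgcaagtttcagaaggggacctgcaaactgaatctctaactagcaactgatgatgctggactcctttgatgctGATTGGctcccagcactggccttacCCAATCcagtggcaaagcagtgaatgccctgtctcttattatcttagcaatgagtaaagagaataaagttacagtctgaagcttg
H2-Oa: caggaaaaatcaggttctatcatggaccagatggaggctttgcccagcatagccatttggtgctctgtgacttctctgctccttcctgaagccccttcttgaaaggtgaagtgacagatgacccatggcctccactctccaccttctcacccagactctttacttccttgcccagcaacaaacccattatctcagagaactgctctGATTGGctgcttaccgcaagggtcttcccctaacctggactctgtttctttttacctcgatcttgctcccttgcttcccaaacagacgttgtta
All 8 MHC class II genes with a window (of 11 tested) held the letters on the gene's own strand, against 8.7% of all 32851 windows, and 16.1% of windows held them on either strand. In the 3 windows shown the match on the gene's own strand began 49 (H2-Aa), 60 (H2-Eb1) and 44 (H2-Oa) bases before the start.

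Platelet genes led the falls on the deposited scale, with a wide spread between mice. The 12 largest falls named by rule were Sh3bgrl2, P2ry12, Clca3a1, Vwf, Ppbp, Ctla2a, Syt13, Clu, Cd59b, Ly6g6f, Parvb and Treml1, at -3.53 to -3.18. Each of these 12 calls was lost in at least 1 of the fits that left out a mouse, 11 without control mouse 489, 11 without 490, 7 without 488, 2 without TKI mouse 502 and 2 without 512. The highest adjusted p in those fits was 0.0512 for Treml1 and 0.206 for Sh3bgrl2. Each fit pools the spread of TKI and control mice, so these calls rest in part on control mice, whose changes lay close to 0. Ppbp, the precursor of a chemokine stored in platelet alpha granules, was at 903 TPM (502), 49.8 TPM (507), 2230 TPM (508) and 193 TPM (512) in the last week, against 2860, 4550, 5550 and 2580 TPM at week 11. Its control values were 1040 to 1290 TPM at week 16 and 712 to 1640 TPM at week 11. TKI values of the 2 times did not overlap, and at week 11 all 4 TKI mice were above the controls, while in the last week 3 were below and mouse 508 was above.

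Ppbp fell by 3.30 ± 1.13 (SE, limma adjusted p = 0.026). The rescaled change was -2.71 (adjusted p = 0.165) and that from week 12 was -3.37 (adjusted p = 0.0884). Vwf, the von Willebrand factor that tethers platelets to damaged vessels, fell by 3.31 ± 0.98 (adjusted p = 0.0131) and by 3.46 from week 12 (adjusted p = 0.0393), with a rescaled value of -2.73 (adjusted p = 0.112). Of 24 platelet and megakaryocyte genes 21 fell as deposited (median -2.93), 1 fell on rescaled values (median -2.35) and 12 fell from week 12 (median -2.92). Plek, the platelet kinase substrate pleckstrin, was the named member that fell on both scales, by 1.99 ± 0.37 (adjusted p = 0.00104) and by 1.40 rescaled (adjusted p = 0.0425).

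In mice 507 and 512 the platelet level at week 16 lay far below that at week 15. Ppbp in mouse 507 was at 5670 TPM at week 14, 2830 TPM at week 15 and 49.8 TPM at week 16, and in mouse 512 at 2450, 1630 and 193 TPM. In mouse 502 it was at 3890, 1360 and 903 TPM over the same weeks. The mean log2 level of the platelet and megakaryocyte list on rescaled values was 4.23 at week 16 and 7.87 at week 15 in mouse 512, and 6.56 at week 16 and 7.09 at week 15 in mouse 502. The mean rescaled change of that list from week 11 was -1.38 in 502, -4.94 in 507, -2.95 in 512 and -0.06 in 508.

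**Figure D4:**
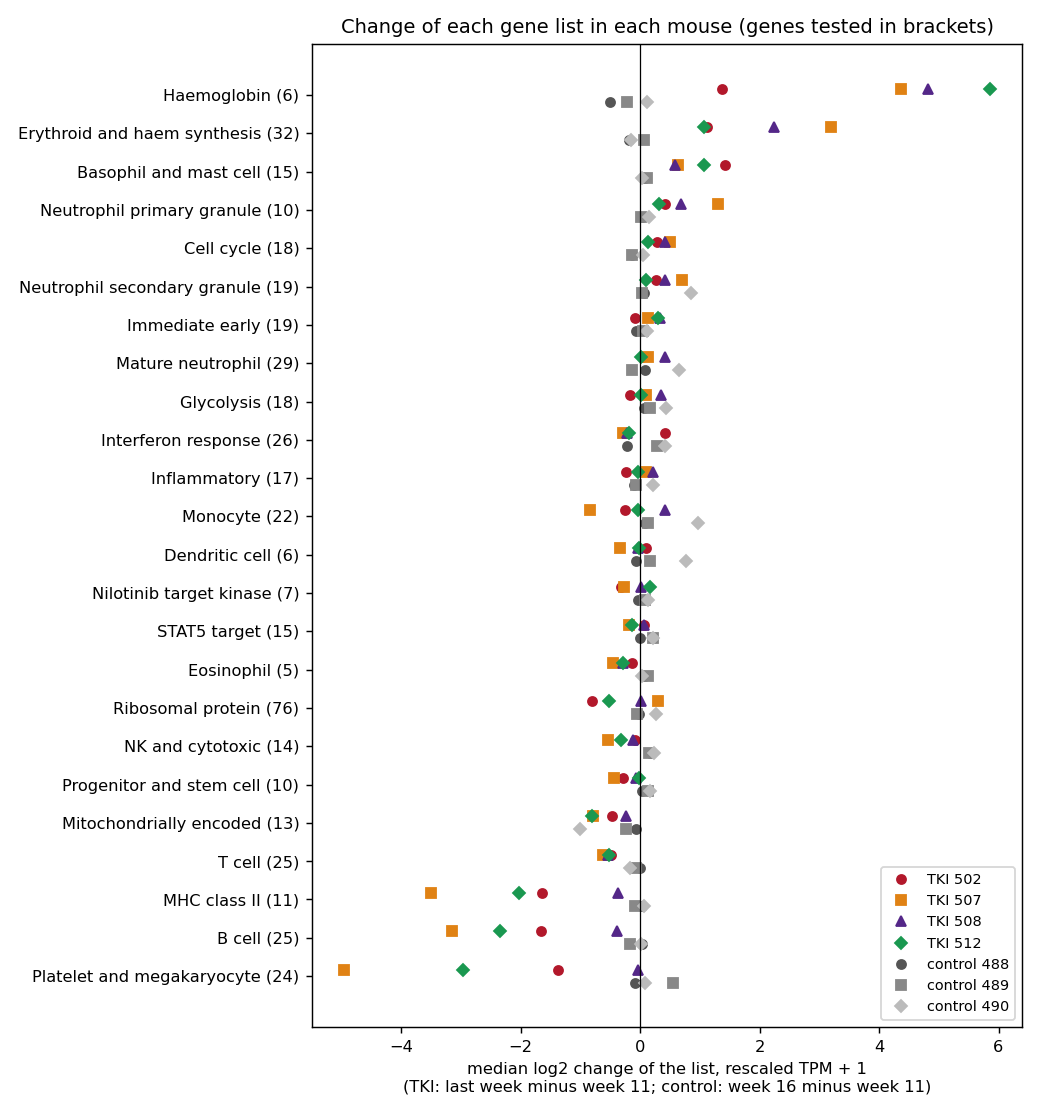
Median log2 change, on rescaled TPM + 1, of each of 24 gene lists in each mouse, with TKI mice (last week minus week 11, coloured) above control mice (week 16 minus week 11, grey) in each row and the number of genes tested in brackets. In the 4 TKI mice the median ran from -4.95 to -0.04 for platelet genes and from 1.37 to 5.86 for haemoglobin.

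Basophil genes were among the rises. Prss34, a basophil protease, was at 16.8 TPM (502), 27.8 TPM (507), 8.24 TPM (508) and 23.9 TPM (512) in the last week, against 2.80, 8.28, 5.92 and 3.91 TPM at week 11. The ranges overlapped, with 508 in the last week just below 507 at week 11, and controls held at most 0.851 TPM at week 16 and 0.503 TPM at week 11. At week 15 Prss34 had been at 3.43, 4.96 and 2.68 TPM in mice 502, 507 and 512.

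Prss34 rose by 1.66 ± 0.43 (SE, limma adjusted p = 0.00607), by 2.18 rescaled (adjusted p = 0.0229) and by 1.45 from week 12 (adjusted p = 0.00788). Of 15 basophil and mast cell genes 7 rose and 3 fell as deposited (median 0.63), 9 rose and 0 fell on rescaled values (median 1.06), and 5 of 13 rose and 1 fell from week 12 (median 0.61). The member that fell from week 12 was Itga2b, the integrin alpha IIb chain of platelets, at -2.57 (adjusted p = 0.0292). Itga2b averaged 160 TPM in the last week and 710 TPM at week 11, out of a summed list level of 230 to 480 TPM in the last week and 606 to 1190 TPM at week 11. The others called from week 12, named here after their values were seen, were Mcpt8 (a basophil protease), Fcer1a (the IgE receptor alpha chain), Il6 and Ccl3, at 1.22 to 1.98.

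Neutrophil genes were already high at week 11. Mature neutrophil genes averaged 4.60 on the rescaled log2 scale at week 10 in mouse 507, 6.69 at week 11 and 6.91 at week 16, and mouse 502 gave 3.92, 6.72 and 6.99. As deposited the list median was -0.46, that of all genes, with 3 of 29 genes higher and 13 lower. On rescaled values 3 rose and 1 fell (median 0.13), and from week 12 6 rose and 0 fell (median 0.18). From week 10, the end of nilotinib, 25 of 29 rose on the deposited scale with a median of 2.00, where 1149 of all 10870 genes rose (10.6%) and 3507 fell (32.3%). Named after their values were seen, the rises as deposited were the stefin genes Stfa2l1, Stfa2 and Stfa3 (0.98 to 2.90), whose copies share sequence, and the rescaled rises were Mmp9, a gelatinase (1.04, adjusted p = 0.0265), Stfa2l1 (1.57) and Padi4, a histone-modifying enzyme of neutrophils (0.66).

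Among secondary granule genes 0 of 19 rose and 4 fell as deposited (median -0.28), 6 rose and 0 fell rescaled (median 0.31), and 4 rose and 3 fell from week 12 (median 0.48). Mmp8, a collagenase of neutrophil granules, was at 146 TPM (502), 214 TPM (507), 400 TPM (508) and 403 TPM (512) in the last week, against 284, 498, 823 and 879 TPM at week 11 and 14.6, 25.6, 29.4 and 85.9 TPM at week 10. It was lower in the last week than at week 11 in 4 of 4 mice although the ranges overlapped, and control mice held 5.80 to 15.9 TPM at week 16. Mmp8 fell by 1.08 ± 0.21 (SE, limma adjusted p = 0.00116) on the deposited scale. The rescaled value was -0.49 (adjusted p = 0.175), that from week 12 was 0.05 (adjusted p = 0.876) and that from week 10 was 3.05 on the deposited scale.

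Primary granule genes are made at the promyelocyte stage, before cells normally leave the marrow. Ctsg, the serine protease cathepsin G, was at 7.70 TPM (502), 27.5 TPM (507), 1.02 TPM (508) and 6.66 TPM (512) in the last week, against 0.269, 0.458, 0.323 and 0.498 TPM at week 11. The 2 times did not overlap in TKI mice, and controls held at most 0.0783 TPM at week 16 and 0.0749 TPM at week 11. At week 15 Ctsg had been at 1.38, 1.57 and 0.806 TPM in mice 502, 507 and 512.

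Ctsg rose by 2.51 ± 0.70 (SE, limma adjusted p = 0.0098), by 2.80 rescaled (adjusted p = 0.0343) and by 2.75 from week 12 (adjusted p = 0.00749), and the deposited call was lost without mouse 512 (adjusted p = 0.0581). Elane (neutrophil elastase) and Mpo (myeloperoxidase), chosen after their values were seen, rose by 1.59 ± 0.50 (adjusted p = 0.018) and 1.71 ± 0.56 (adjusted p = 0.022) as deposited. Neither was called from week 12, where Ctsg was the only member of the list that rose. Of 10 primary granule genes 3 rose and 2 fell as deposited (median 0.30), 3 rose and 0 fell rescaled (median 0.73), and 1 rose and 1 fell from week 12 (median 0.38). Among all genes tested 1.79% rose and 43.7% fell as deposited, 5.69% and 7.07% rescaled, and 12.1% and 12.8% from week 12. The 2 members that fell as deposited were Calr, an endoplasmic reticulum chaperone (-0.99 ± 0.20, adjusted p = 0.00146), and Nkg7, a gene of cytotoxic granules (-0.92 ± 0.20, adjusted p = 0.00214). Neither of these falls passed on rescaled values, with Calr at adjusted p = 0.107 and Nkg7 at adjusted p = 0.0608.

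Among cell cycle genes Mki67, the proliferation marker Ki-67, was at 18.9 TPM (502), 27.7 TPM (507), 3.85 TPM (508) and 3.78 TPM (512) in the last week, against 1.27, 2.49, 2.06 and 2.02 TPM at week 11. The times did not overlap, and controls held 0.873 to 1.97 TPM at week 16 and 1.44 to 1.88 TPM at week 11. Mki67 rose by 1.88 ± 0.50 (SE, limma adjusted p = 0.00735), by 2.34 rescaled (adjusted p = 0.0291) and by 1.73 from week 12 (adjusted p = 0.0319). Of 18 cell cycle genes 3 rose and 3 fell as deposited (median -0.04), 6 rose and 0 fell rescaled (median 0.32), and 1 of 22 rose and 2 fell from week 12 (median -0.20). Among all genes tested 1.79% rose and 43.7% fell as deposited, 5.69% and 7.07% rescaled, and 12.1% and 12.8% from week 12. The list shares from week 12 were thus no higher than those of all genes. The 3 that fell as deposited, named after their values were seen, were the DNA replication genes Mcm2, Mcm4 and Pcna (-0.60 to -0.57). Ube2c, a ubiquitin-conjugating enzyme of mitosis, rose by 2.13 ± 0.48 (adjusted p = 0.00293) and gave 0.73 from week 12 (adjusted p = 0.223).

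T cell genes fell from week 11. Trac, the constant segment of the T cell receptor alpha chain, was at 5.65 TPM (502), 6.36 TPM (507), 3.95 TPM (508) and 6.25 TPM (512) in the last week, against 15.6, 21.6, 20.4 and 16.3 TPM at week 11. These did not overlap, and control mice held 17.6 to 25.0 TPM at week 16 and 15.2 to 26.5 TPM at week 11. Trac fell by 1.58 ± 0.25 (SE, limma adjusted p = 0.000936) and by 1.04 rescaled (adjusted p = 0.0255), with -0.55 from week 12 (adjusted p = 0.0897). Of 25 T cell genes 23 fell as deposited (median -0.97), 11 fell rescaled (median -0.46) and 4 fell from week 12 (median -0.20), and the difference from the B cell list was not tested. The shares of all genes that fell were 43.7%, 7.07% and 12.8%, so the T cell count from week 12 was near that of all genes.

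Of 14 NK and cytotoxic genes 9 fell as deposited (median -0.71), 0 changed on rescaled values (median -0.27), and 7 of 16 fell from week 12 (median -0.57). Prf1, the pore-forming perforin, fell by 0.85 ± 0.19 (SE, limma adjusted p = 0.00238) and by 0.91 from week 12 (adjusted p = 0.0124), with -0.49 rescaled (adjusted p = 0.059). Over all genes 43.7% fell as deposited (median -0.46), 7.07% fell rescaled, and 12.1% rose and 12.8% fell from week 12. Of 6 dendritic cell genes 2 fell as deposited (median -0.47), 1 fell rescaled (median -0.09) and 2 fell from week 12 (median -0.39). Of 5 eosinophil genes 3 fell as deposited (median -0.52), 0 changed rescaled (median -0.20) and 2 rose from week 12 (median -0.10). The rises were Prg2 at 2.12 and Ear6 at 2.63, both eosinophil granule genes named after their values were seen. The 3 that fell as deposited were Ear2, Siglecf and Il5ra. From week 12 these gave -1.15, -0.10 and -0.20, none of which passed.

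Monocyte genes depended on the baseline. Of 22 tested, 0 rose and 10 fell as deposited (median -0.56, all genes -0.46), near the 43.7% of all genes that fell. On rescaled values 2 rose and 3 fell (median -0.05), where 5.69% of all genes rose and 7.07% fell. From week 12, 1 rose and 14 fell (median -1.54), where 12.1% of all genes rose and 12.8% fell. The 3 members given here were named for the smallest p as deposited and all fell, while the members that rose are not named. F13a1, the coagulation factor XIII A chain of monocytes and platelets, was at 37.4 TPM (502), 16.0 TPM (507), 163 TPM (508) and 37.4 TPM (512) in the last week, against 173, 296, 350 and 189 TPM at week 11. The times did not overlap in TKI mice, and F13a1 fell by 2.43 ± 0.41 (SE, limma adjusted p = 0.000936), by 1.84 rescaled (adjusted p = 0.042) and by 2.41 from week 12 (adjusted p = 0.0162). Irf8, a transcription factor of monocytes, dendritic cells and B cells, fell by 1.73 ± 0.27 (adjusted p = 0.000936), by 1.21 rescaled (adjusted p = 0.0362) and by 1.92 from week 12 (adjusted p = 0.0116). Ace, carried by nonclassical monocytes, fell by 1.03 ± 0.20 (adjusted p = 0.00132) and by 2.85 from week 12 (adjusted p = 0.0125).

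Of 10 progenitor and stem cell genes 6 fell as deposited (median -0.73), 2 fell rescaled (median -0.31) and 3 fell from week 12 (median -0.04). Over all genes 43.7% fell as deposited (median -0.46), 7.07% rescaled and 12.8% from week 12. Cd34, a surface marker of haematopoietic progenitors that mouse mast cells also carry, was at 1.88 TPM (502), 1.59 TPM (507), 7.81 TPM (508) and 0.830 TPM (512) in the last week, against 20.7, 20.0, 28.5 and 9.77 TPM at week 11. The times did not overlap, and controls were at most 0.393 TPM at week 16 and 0.115 TPM at week 11. Cd34 fell by 2.56 ± 0.45 (SE, limma adjusted p = 0.000962), by 2.05 rescaled (adjusted p = 0.0321) and by 1.28 from week 12 (adjusted p = 0.0124).

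Genes downstream of the kinase were called at shares near those of all genes. Of 15 STAT5 target genes, which the kinase activates through STAT5, 1 rose and 8 fell as deposited (median -0.66, all genes -0.46, of which 43.7% fell), 2 rose and 1 fell rescaled (median -0.16, where 5.69% of all genes rose and 7.07% fell), and 3 rose and 0 fell from week 12 (median -0.08). Myc was at 3.24 TPM (502), 4.72 TPM (507), 3.95 TPM (508) and 2.93 TPM (512) in the last week, against 7.89, 14.6, 19.5 and 12.7 TPM at week 11. The times did not overlap in TKI mice, and control mice held 4.53 to 6.55 TPM at week 16. Myc fell by 1.59 ± 0.24 (SE, limma adjusted p = 0.000936) and by 1.07 rescaled (adjusted p = 0.0229), and gave -0.60 from week 12 (adjusted p = 0.138). Bcl2l1, which encodes the survival protein Bcl-xL and was chosen after its values were seen, rose by 1.37 (adjusted p = 0.00318), by 1.96 rescaled (adjusted p = 0.0229) and by 1.03 from week 12 (adjusted p = 0.0276). Socs3, a feedback inhibitor of STAT signalling, fell by 1.01 ± 0.18 (adjusted p = 0.000978), with -0.43 rescaled (adjusted p = 0.127).

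Of 7 genes for kinases and other proteins that nilotinib binds, 4 fell as deposited and 1 fell rescaled, Lck, the T cell kinase (-0.45, adjusted p = 0.048), where 43.7% of all genes fell as deposited and 7.07% rescaled. Immediate early genes gave 1 rise and 5 falls of 19 as deposited (median -0.39), 4 rises and 1 fall rescaled (median 0.20), and 0 rises and 1 fall from week 12 (median 0.16). The rescaled rises, named after their values were seen, were Jund, Ier2, Nr4a1 and Atf3 (0.62 to 1.09), and the fall was the phosphatase gene Dusp2 (-0.64, adjusted p = 0.0364). Over all genes 1.79% rose and 43.7% fell as deposited (median -0.46), and 5.69% rose and 7.07% fell rescaled. Inflammatory genes gave 2 rises and 10 falls of 17 as deposited (median -0.62), and 2 rises and 1 fall rescaled (median -0.03). The rises, named after their values were seen, were the chemokine genes Ccl3 (1.37 rescaled, adjusted p = 0.0251) and Ccl4 (1.24, adjusted p = 0.0307). Il1r2, the decoy receptor for interleukin-1, fell by 1.53 ± 0.26 (SE, limma adjusted p = 0.000936) and by 0.94 rescaled (adjusted p = 0.0471), and gave 0.60 from week 12 (adjusted p = 0.0579).

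Of 26 interferon response genes 2 rose and 12 fell as deposited (median -0.50, all genes -0.46), near the 43.7% of all genes that fell. On rescaled values 1 rose and 3 fell (median -0.01), where 5.69% of all genes rose and 7.07% fell. From week 12, 2 of 27 rose and 12 fell (median -0.71), where 12.1% of all genes rose and 12.8% fell. Oas1a, an antiviral oligoadenylate synthetase, fell by 1.66 ± 0.28 (SE, limma adjusted p = 0.000936), by 1.17 rescaled (adjusted p = 0.0462) and by 2.31 from week 12 (adjusted p = 0.0116). Rsad2, the antiviral protein viperin, chosen after its values were seen, was the rescaled rise (2.42, adjusted p = 0.0275). Of ribosomal protein genes, 72 of 76 fell as deposited (median -0.84), 0 changed rescaled (median -0.24) and 5 fell from week 12 (median -0.35). Of 18 glycolysis genes 8 fell as deposited and 1 rose and 1 fell rescaled, the hexokinases Hk2 (0.74, adjusted p = 0.0277, named after its value was seen) and Hk1 (-0.99, adjusted p = 0.0439), which catalyse the first step, and these shares were near the 43.7% of all genes that fell as deposited and the 5.69% that rose and 7.07% that fell rescaled. Of 13 mitochondrially encoded genes 8 fell as deposited (median -0.97) and 3 fell rescaled (median -0.38).

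**Figure D5:**
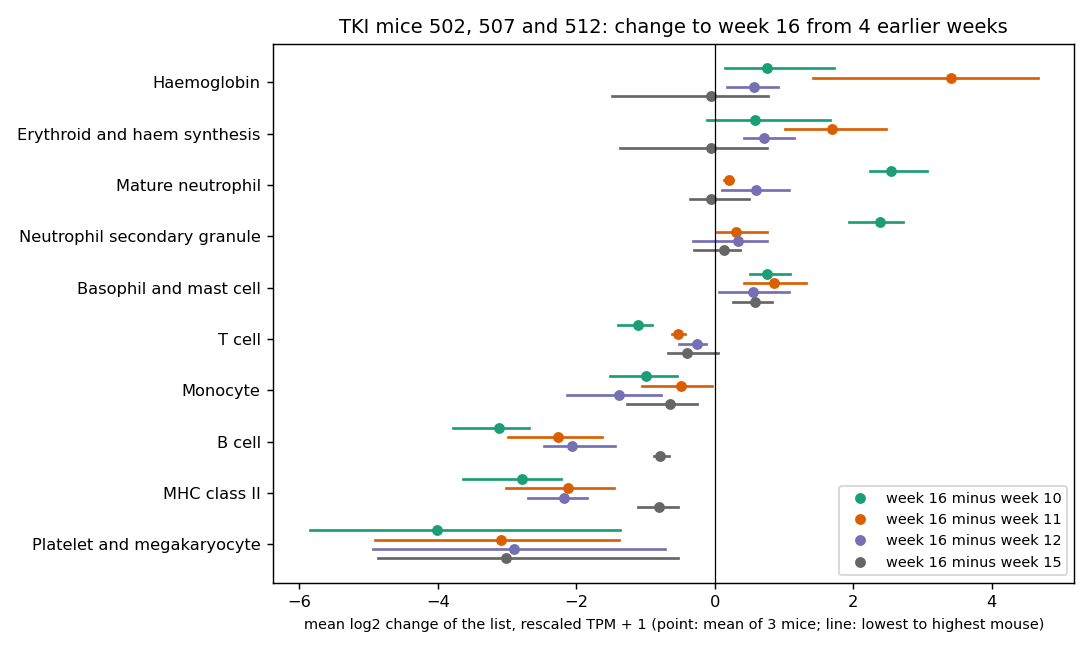
Mean log2 change (rescaled TPM + 1) of 10 gene lists to week 16 from weeks 10, 11, 12 and 15 in TKI mice 502, 507 and 512, where a point is the mean of 3 mice and a line runs from the lowest to the highest mouse. The B cell list stood at -3.12, -2.26, -2.06 and -0.79 from the 4 earlier weeks, while haemoglobin stood at 3.42 from week 11 and 0.57 from week 12.

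The change in TKI mice was then set against that in control mice. As deposited 55 of 10944 genes had a higher change in TKI mice (0.503%) and 2573 a lower one (23.5%), with the median of all genes at -0.557. On rescaled values limma called 0 genes (0%), with 2057 at an unadjusted p under 0.05. The count on deposited values was 29 without control mouse 489, the lowest of the fits that left out a mouse, and 220 without control mouse 488. All 4 TKI mice and control mouse 488 carry the batch label 2022_A, and control mice 489 and 490 another. Within that batch, with 1 control mouse assumed to vary like the TKI mice, 4 genes had a higher and 33 a lower change, and batch and cohort are otherwise largely confounded.

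The genes with the smallest p among the lower ones were Nme1, H4c18, Slc25a4, Fcgr2b, Xbp1 and Tle5. Xbp1, a transcription factor of the secretory pathway and plasma cells, was at 26.0 TPM (502), 23.1 TPM (507), 55.4 TPM (508) and 64.1 TPM (512) in the last week and at 61.7, 99.7, 145 and 139 TPM at week 11, while control mice held 14.7 to 30.3 TPM at week 16 and 13.9 to 17.0 TPM at week 11. Its change was negative in 4 of 4 TKI mice (-2.07 to -1.11) and positive in 3 of 3 control mice (0.07 to 0.91), a difference of -1.90 (limma adjusted p = 0.015). From week 10 the difference turned to 0.31 for Xbp1 and 0.09 for Fcgr2b, the inhibitory Fc receptor. Among the higher ones were Tfdp2, a cell cycle transcription factor partner (1.60, adjusted p = 0.0184), Sec61g, a subunit of the translocation channel of the endoplasmic reticulum (1.60, adjusted p = 0.0184), Psme3, an activator of the proteasome (1.70, adjusted p = 0.0191), and Isca1, an iron-sulphur cluster assembly factor (1.72, adjusted p = 0.0223). None of these 4 passed from week 10, where Tfdp2 turned to -0.14. Psme3 was at 47.7 to 186 TPM in the last week and 19.9 to 87.1 TPM at week 11 in TKI mice, against 102 to 141 TPM at week 16 and 122 to 179 TPM at week 11 in control mice.

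By list, the change in TKI mice was lower than in control mice for 18 of 25 B cell genes (median difference -2.53), 9 of 11 MHC class II genes (-2.54), 9 of 24 platelet and megakaryocyte genes (-3.26), 13 of 25 T cell genes (-0.93) and 54 of 76 ribosomal protein genes (-0.95). It was higher for 5 and lower for 4 of 32 erythroid and haem synthesis genes (median 1.74) and higher for 1 of 6 haemoglobin genes. The rescaled median differences were -1.92 for B cell genes, -1.89 for MHC class II genes, -2.61 for platelet and megakaryocyte genes, -0.40 for T cell genes and 2.12 for erythroid and haem synthesis genes, with 0 genes passing in each.

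The last week was also compared with week 6, the start of nilotinib. On rescaled values 1032 of 10547 genes rose (9.78%) and 1511 fell (14.3%), with the median of all genes at 0.011. As deposited 92 rose (0.872%) and 1855 fell (17.6%), with the median at -0.17, so the balance of directions depended on the scale. The spread in the deposited fit came from the pooled estimate over all genes alone. The list counts from week 6 given here are on rescaled values. B cell genes fell in 24 of 25 (median -2.09) and MHC class II genes in 11 of 11 (median -1.98). Of 24 platelet and megakaryocyte genes 1 fell (median -3.01), of 29 mature neutrophil genes 8 rose and 0 fell (median 0.45), and of 6 haemoglobin genes 0 changed (median 0.73). Spib was at 0.308 to 6.26 TPM in the last week and 9.38 to 14.0 TPM at week 6, without overlap. The comparison of the last week with week 6 and that with week 11 share their later libraries.

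Against untreated CML mice, week 16 minus week 11, 96 of 10479 genes had a higher change in TKI mice as deposited (0.916%) and 1815 a lower one (17.3%). None of the 4 CML mice shares a batch label with these TKI mice, so batch and cohort cannot be told apart here. After rescaling 1 gene passed (0.00954%), Cd300lf, an inhibitory receptor of myeloid cells named after its value was seen (difference -1.67 ± 0.20, SE, limma adjusted p = 0.0253). Platelet and megakaryocyte genes had a lower change in TKI mice for 22 of 24 as deposited (median difference -3.05). Mouse by mouse, the deposited median change of that list was -1.63 (502), -5.58 (507), -1.18 (508) and -3.28 (512) in TKI mice. In CML mice it was 0.20 (480), 0.58 (487), -0.09 (541) and -0.16 (542), without overlap with TKI mice. The deposited median of all genes was itself -0.23 (502), -0.51 (507), -0.91 (508) and -0.29 (512) in TKI mice, and -0.33 to 0.28 in CML mice. After rescaling 0 of 24 platelet and megakaryocyte genes passed (median difference -2.54). In the rescaled fit with control mice alone, the list median of TKI mice reached up to -0.04.

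As deposited, mature neutrophil genes had a lower change in TKI mice for 21 of 29 (median difference -1.54). The list medians were -0.71 to -0.22 in TKI mice and 0.66 to 1.75 in CML mice. The medians of all genes were -0.91 to -0.23 in TKI mice and -0.33 to 0.28 in CML mice. After rescaling 0 of 29 passed (median difference -1.10). Haemoglobin genes had a higher change in TKI mice for 6 of 6 as deposited (median difference 3.85) and for 0 of 6 after rescaling (median difference 4.34). For B cell genes 0 of 25 passed as deposited (median difference -1.36). Their list medians were -3.66 to -1.43 in TKI mice and -2.09 to -0.35 in CML mice, which overlapped through CML mouse 542. The transgene was listed at 0 TPM at weeks 16 and 11 in the mouse labelled CML 487, against 4.34 to 27.4 TPM at week 16 in the other 3, and without 487 97 genes were higher and 1224 lower. The count of 1911 in all was 849 without CML mouse 480, 1048 without 541, 3004 without 542 and 1051 without TKI mouse 507.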

How the data were processed

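Blood RNA, with PBMC labelled as the tissue and whole blood as the source, was sequenced in 298 libraries of 20 mice, 1 per mouse and week. The authors deposited TPM values for 14605 genes. The submitters' processing notes name STAR, Salmon and the build GRCm39, without their roles or versions. The columns summed to 989100 to 999879 TPM. These values do not preserve read depth, which is therefore unknown, and counting errors cannot be given.

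The scale was log2(TPM + 1), one that makes fold changes of low genes too small. A gene entered a fit where its mean over that fit's libraries reached 1 TPM. Each mouse gave 1 change, later week minus earlier week, so that mouse is a block, and libraries pair because the labels give them the same mouse. Changes were fitted with limma 3.58.1 (lmFit with a term per cohort, eBayes with trend) in R 4.3.3, with the call at an adjusted p under 0.05 (Benjamini-Hochberg, over all tested genes). The prior degrees of freedom were 11.43 against 5 residual ones (10.17 against 8 with CML mice, and infinite from week 6 on deposited values, where p-values rest on the pooled spread alone). Mice are the replicates, and limma p-values measure the spread between mice of the same cohort, pooled over the cohorts of a fit. The p-values of the TKI change therefore rest in part on the spread of control mice. Whether the cohorts vary alike was not tested. TKI mouse 508 entered with week 12 as its last week. All 4 TKI mice and control mouse 488 share 1 labelled batch and control mice 489 and 490 another, so a fit within the first left 1 control mouse.

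Rescaled values divide each library by a median-ratio size factor over the libraries of the fit. Single values were tested by exact sign flips or exact permutations. Genes were named by a rule: the 12 largest rises and the 12 largest falls that passed, had the same sign in every TKI mouse and reached a mean TPM of 5, the 6 smallest p in each direction for TKI minus control, up to 3 members per list by p, the transgene, Bcr and Abl1. The members and the 24 gene lists were chosen with earlier results of these data known. Lists are described by counts and medians, with no test of a list. Single-gene results of some members that the rule named are not reported here. Sex labels went against 0 of the 14 libraries of the comparison, and no pair of them held identical values.

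Promoter windows are RefSeq sequences of build GRCm38.p6, used for their letters only. R read the files through data.table (version 1.17.8). Plots came from matplotlib 3.10.9 and exact tests from scipy 1.17.1, under Python 3.11.15, pandas 2.3.3 and numpy 2.4.6.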

Additional observations from a re-analysis of the deposited data

Results flagged for a closer look

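Among 139 groups of 4 TKI values checked for 1 sample far from the other 3, 7 were found, of which 6 are given, and chance gives about 1 in 20. Mouse 507 stood apart, with a lower log2 change than the others, for the inhibitory Fc receptor gene Fcgr2b (-1.92, the others -1.19 to -1.07), for Trim30a, an interferon-induced gene (-2.72, the others -1.41 to -1.24), and for Hk1, a hexokinase (-2.72, the others no lower than -1.30). For Jun, an AP-1 subunit, mouse 507 fell least (-0.47, the others -1.27 to -1.18). Mouse 512 was lowest for Kit, the stem cell factor receptor (-1.40, the others -0.79 to -0.70). The haemoglobin share at week 11 was 24.6% in mouse 502 and 0.331 to 2.49% in the others.

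The change of 1911 genes differed between TKI and untreated CML mice on the deposited scale (limma, adjusted p under 0.05), and of 1 gene after rescaling.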

How the results depend on the processing

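The number of genes that changed in TKI mice between the last week and week 11 was 1397 after rescaling, 976 without haemoglobin, erythroid genes and Rn7s2, 2943 at a mean TPM of at least 5, 7843 with the mean of weeks 15 and 16, 2838 for a slope per week, 1268 with week 12 in place of week 11 and 2669 with week 12 rescaled. Leaving out 1 mouse gave 3466 to 4936. Control mice had 3 with weeks 15 and 16, 2 with week 10, 15 within batch 2022_A and 0 to 3 with 1 mouse left out. TKI minus control gave 0 after rescaling, 0 without the erythroid genes, 1746 at pseudocount 0.1, 3994 with weeks 15 and 16, 1665 for the slope, 37 within batch 2022_A, 169 with week 12, 35 with week 12 rescaled (34 higher and 1 lower, against 55 and 2573) and 29 to 2866 with 1 mouse left out. With no replicate block, so without pairing libraries by mouse, it gave 0, and TKI minus CML gave 2. TKI minus CML gave 1 after rescaling, 100 without the erythroid genes (75 higher and 25 lower, against 96 and 1815) and 849 to 3004 with 1 mouse left out. Last week minus week 6 gave 1172 (without TKI mouse 507) to 2438 with 1 mouse left out, and 1947 with all on deposited values. The transgene change was 0.553 after rescaling and -0.479 to 0.462 with 1 mouse left out. Its TKI minus control difference was -0.155 from week 10 and -0.383 to 0.558 with 1 mouse left out. After rescaling, mean list changes were 0.33 for secondary granule, 0.26 for mature neutrophil, -0.55 for T cell, -0.24 for NK, -0.52 for progenitor, 0.62 for cell cycle, 0.02 for STAT5 target, 0.22 for immediate early, 0.02 for inflammatory, -0.23 for ribosomal protein, 0.02 for glycolysis, -0.41 for mitochondrially encoded and -0.12 for nilotinib target kinase genes. Moves of less than 1 SD over mice gave 0.08 for eosinophil, 0.07 for interferon response, -0.27 for monocyte and -0.06 for dendritic cell genes. With 1 mouse left out, mean list changes were -0.35 to -0.07 for Neutrophil secondary granule, 0.16 to 0.64 for Neutrophil primary granule, -0.44 to -0.19 for Mature neutrophil, 0.14 to 0.57 for Basophil and mast cell, -0.52 to -0.07 for Eosinophil, -0.91 to -0.47 for Monocyte, -0.54 to -0.30 for Dendritic cell, -2.65 to -1.93 for B cell, -1.15 to -0.87 for T cell, -0.84 to -0.55 for NK and cytotoxic, -2.50 to -1.75 for MHC class II, -3.49 to -2.03 for Platelet and megakaryocyte, 2.72 to 3.84 for Haemoglobin, 1.21 to 1.64 for Erythroid and haem synthesis, -1.14 to -0.83 for Progenitor and stem cell, 0.14 to 0.25 for Cell cycle, -0.64 to -0.39 for STAT5 target, -0.42 to -0.19 for Immediate early, -0.58 to -0.41 for Inflammatory, -0.66 to -0.24 for Interferon response, -0.98 to -0.72 for Ribosomal protein, -0.63 to -0.46 for Glycolysis, -1.03 to -0.85 for Mitochondrially encoded and -0.67 to -0.48 for Nilotinib target kinase. The sign turned for single genes as follows. From week 10, it was Tfdp2 TKI minus control -0.14, Fcgr2b TKI minus control 0.09, Xbp1 TKI minus control 0.31, Mmp8 3.05, Saa3 0.43, Il1r2 3.13, Ifitm1 1.23, Wfdc17 0.71, Siglecf 0.15, Nusap1 -0.70, Socs3 0.56, Id1 2.42, Ier3 2.01, Jun 0.75, Il1rn 0.87. From the mean of weeks 10 and 11, it was Mmp8 0.98, Il1r2 0.80, Id1 0.73, Ier3 0.44. From week 12, it was Mmp8 0.09, Il1r2 0.64, Ifitm1 0.04, Nusap1 -0.28, Jun 0.01, Abl1 0.24. From week 12 rescaled, it was Mmp8 0.05, Il1r2 0.60, Nusap1 -0.32, Abl1 0.21. After rescaling, it was HSA_BCR_ABL1 0.55, Abl1 0.13. Without the erythroid genes, it was HSA_BCR_ABL1 0.50, Abl1 0.07. Without mouse 507, it was HSA_BCR_ABL1 0.46. Without mouse 508, it was HSA_BCR_ABL1 0.11. To the mean of weeks 15 and 16, it was HSA_BCR_ABL1 0.09. For the slope, it was HSA_BCR_ABL1 0.03. The causes of these shifts were not tested. The week 12 settings were chosen after seeing the data. Sequencing depth is unknown, so counting error cannot be separated from the spread between mice.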
